A study of Mus musculus with 12 samples.

Results

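The genes described here encode mitochondrial ribosomal proteins, and they were followed in whole retinas of diabetic and normoglycemic mice. They were all genes of the table whose symbol in the platform annotation consists of Mrpl (large subunit) or Mrps (small subunit), a number and optional letters. Of 24570 named genes, 76 met this rule, 48 of the large and 28 of the small subunit. RefSeq (GRCm38.p6) lists 78 symbols of this form, of which Mrps18c and Mrpl27 were not analysed here.

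Both groups were male mice of the background strain C57Bl6/J, with 6 animals each and 1 array per retina sample. The diabetic animals received streptozotocin, a toxin of pancreatic beta cells, as a single intraperitoneal dose of 160 mg/kg at 8 weeks of age and a body weight of 24 to 26 g. Their blood glucose was above 15 mM when checked 7 days later, and the controls received no streptozotocin. Tissue was taken at 6 weeks, which the sample descriptions count from the induction of diabetes, whereas the series text gives 6 weeks as the age of the animals, so the age at collection is not settled. Streptozotocin treatment and diabetes go together in every animal and cannot be told apart. The animals of the groups also carry separate runs of label numbers of unstated meaning, and a cohort or day behind them cannot be told apart from diabetes either.

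Mitochondria carry their own ribosomes, which translate the few proteins encoded by mitochondrial DNA, all of them membrane subunits of the respiratory chain and of ATP synthase. The ribosomal RNAs come from mitochondrial DNA, but every protein of the ribosome is encoded in the nucleus, made in the cytosol and imported. The small subunit binds the messenger RNA and reads its codons, and the large subunit joins the amino acids and releases the chain at the inner membrane. Photoreceptors, the main cells of the retina, pack mitochondria densely into their inner segments. Members with numbers up to 36 (Mrpl) or 21 (Mrps) are numbered after bacterial counterparts, and most of the others were added during the evolution of mitochondria.

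The labelled tissue matched its markers. All 14 retinal marker genes lay above the table median of 5.73 (log2), and their mean per array ran from 10.65 to 10.81. Skeletal muscle markers stayed between 5.49 and 5.58 and the 3 measured red blood cell markers between 5.33 and 5.37, with 8 of these 9 genes under the table median. Lens markers averaged 5.76 to 6.39 in controls and 5.62 to 7.34 in diabetic retinas, and pigment epithelium markers 6.48 to 7.08 and 6.52 to 7.70. The highest mean of both lists was that of diabetic retina 6. Of the 14 retinal markers, 1 was lower in diabetic retinas (7.14%, limma, adjusted p under 0.05), beside 1.77% of all genes. Changes were above 0 for all 6 lens and 4 of 6 pigment epithelium markers, beside 48.1% of all genes, and none of these markers passed that limit.

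Of the 76 mitochondrial ribosomal protein genes, 4 rose in diabetic retinas and none fell past the test (limma, adjusted p under 0.05). They were Mrps6, Mrps23 and Mrps16 of the small subunit and Mrpl48 of the large subunit, with rises of 1.15-fold to 1.26-fold. The 4 are 5.26% of the members, beside 3.24% of all genes tested and 5.14% of the genes at or above the table median, where 69 of the 76 members lie. In the direction of the 4 members, 1.47% of all genes were called higher, and 1.77% were called lower. In that group of brighter genes, 2.39% were called higher. The members' count moved with the settings. With genes at or above the table median tested alone, 8 of 69 members passed (11.6%, beside 6.78% of the genes tested). With an intensity trend and robust variances 9 of 76 did (11.8%, beside 3.64% of all genes). In both of these settings 2 of the members called, Mrpl12 and Mrpl33, were lower in diabetic retinas. For the intensity trend, the share of the brighter genes, the closer comparison for the members, is not given here. In these bulk samples, a change in the number of cells of a type and a change in RNA per cell cannot be told apart.

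Promoters of the 4 called members, and of Mrpl33, which had the lowest value after Mrpl12 and whose window holds motif matches, are given here because they are the stretches from which these transcripts start. They come from RefSeq (GRCm38.p6), which gave at least 1 promoter for 67 of the 76 members. Each runs 5′ to 3′ from 250 bases before a transcript start to 10 bases after it. Where RefSeq lists several starts, as for Mrpl48 and Mrps16, the outermost is shown. Capitals mark matches to 3 short motifs searched on both strands: the ETS motif CCGGAAGT, GCATGCGC, a part of the NRF1 element, and the YY1 motif AAGATGGC. The matches shown do not overlap. The Mrps23 start lies inside the annotated span of the gene.
Mrps6 promoter, chr16:92058086-92058345, plus strand: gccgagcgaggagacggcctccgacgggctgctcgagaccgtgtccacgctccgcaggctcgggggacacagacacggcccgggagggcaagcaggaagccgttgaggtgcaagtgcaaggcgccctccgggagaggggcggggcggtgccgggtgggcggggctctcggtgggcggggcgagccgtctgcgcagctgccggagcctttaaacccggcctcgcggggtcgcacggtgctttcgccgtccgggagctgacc
Mrps23 promoter, chr11:88204138-88204397, plus strand: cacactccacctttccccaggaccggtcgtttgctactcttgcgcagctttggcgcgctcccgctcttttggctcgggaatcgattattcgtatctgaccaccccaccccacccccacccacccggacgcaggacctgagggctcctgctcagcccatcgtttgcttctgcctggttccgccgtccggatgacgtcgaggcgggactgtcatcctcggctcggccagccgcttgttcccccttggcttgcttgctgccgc
Mrpl48 promoter, chr7:100608292-100608551, minus strand: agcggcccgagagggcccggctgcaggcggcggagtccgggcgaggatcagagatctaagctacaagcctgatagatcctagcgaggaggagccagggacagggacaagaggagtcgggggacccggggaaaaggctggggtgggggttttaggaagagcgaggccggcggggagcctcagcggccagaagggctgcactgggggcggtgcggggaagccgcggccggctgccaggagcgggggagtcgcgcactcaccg
Mrps16 promoter, chr14:20393625-20393884, minus strand: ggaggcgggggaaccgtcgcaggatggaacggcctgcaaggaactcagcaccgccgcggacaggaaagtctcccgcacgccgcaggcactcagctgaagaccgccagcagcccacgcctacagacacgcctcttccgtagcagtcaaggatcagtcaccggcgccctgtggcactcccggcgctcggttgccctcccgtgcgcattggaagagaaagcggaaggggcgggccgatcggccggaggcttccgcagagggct
Mrpl33 promoter, chr5:31613701-31613960, plus strand: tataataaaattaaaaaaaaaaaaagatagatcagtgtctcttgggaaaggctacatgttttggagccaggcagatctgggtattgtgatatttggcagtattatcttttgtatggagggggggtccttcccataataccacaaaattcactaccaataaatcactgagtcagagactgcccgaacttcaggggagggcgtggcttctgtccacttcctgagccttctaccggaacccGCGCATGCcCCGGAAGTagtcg

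Among the 67 members with a promoter of 300 bases, 27 held at least 1 of the 3 motifs (40.3%), against 9.91% of the 27025 genes with a promoter in RefSeq. The YY1 motif was found in 12 members (17.9%, against 3.19% of all genes), the ETS motif in 10 (14.9%, against 4.31%) and the part of the NRF1 element in 8 (11.9%, against 3.05%). By subunit, 18 of 42 large and 9 of 25 small subunit genes held a motif. The median GC content was 58.3% in the members' promoters and 52.7% in all promoters. The windows shown for the 4 called members hold no match, and neither do the promoters of Mrpl12 and Mrpl34. Mrpl33, which was shown for its matches, holds a part of the NRF1 element that begins 12 bases and an ETS motif that begins 3 bases before its start. A further Mrpl48 start holds an ETS motif. A match describes the letters in the window and is no evidence of binding.

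Mrps6, the counterpart of a protein of the platform of the bacterial small subunit, showed the largest rise. Its log2 values were 7.69, 7.92, 7.69, 7.72, 7.71 and 7.70 in controls 1 to 6 and 8.02, 8.22, 8.22, 7.92, 8.11 and 7.97 in diabetic retinas 1 to 6. The groups did not overlap, but control 2 lay only just under diabetic retina 4. The change was 0.34 ± 0.06 (SE; 95% interval 0.21 to 0.47), a 1.26-fold rise (adjusted p = 0.0174). The call held without any single array, with adjusted p up to 0.0388. Slc5a3, a gene for an inositol transporter, is annotated over the same DNA, and its span shares 29138 bases with that of Mrps6. Its own line differed by 0.10 ± 0.08 (adjusted p = 0.497), with control means and SD of 6.34 ± 0.16 and diabetic ones of 6.45 ± 0.14. Whether probes of one gene also read the other was not tested.

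Mrps23, a small subunit protein without a bacterial counterpart, rose 1.15-fold. Controls 1 to 6 had log2 values of 7.33, 7.46, 7.39, 7.53, 7.34 and 7.33, and diabetic retinas 1 to 6 had 7.66, 7.71, 7.53, 7.53, 7.53 and 7.63. The highest control and the 3 lowest diabetic retinas all stood at 7.53, so the groups were apart by less than the rounding shown. The change was 0.20 ± 0.04 (95% interval 0.11 to 0.30; adjusted p = 0.0318). The call was lost without control 1, 3 or 6 or diabetic retina 1 or 6 (adjusted p from 0.0608 to 0.0629). Cuedc1, whose span overlaps that of Mrps23 by 35 bases, differed by 0.30 ± 0.08 (adjusted p = 0.0539).

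Mrps16, the counterpart of a bacterial small subunit protein and a gene mutated in an inherited respiratory chain deficiency, rose 1.19-fold. Its values were 6.97, 6.97, 6.82, 6.86, 6.84 and 6.75 in controls 1 to 6 and 7.35, 7.02, 7.11, 7.04, 7.17 and 7.05 in diabetic retinas 1 to 6. All diabetic retinas lay above all controls, with diabetic retina 1 highest. The change was 0.25 ± 0.06 (95% interval 0.13 to 0.38; adjusted p = 0.0414). It lost the call without any one of controls 2 to 6 or of diabetic retinas 3 to 6 (adjusted p from 0.0515 to 0.0784), and with the mean of the lens markers as a covariate (adjusted p = 0.0601).

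Mrpl48, a protein of the central protuberance of the large subunit, rose 1.21-fold. Controls 1 to 6 had 6.73, 6.66, 6.47, 6.46, 6.57 and 6.71, and diabetic retinas 1 to 6 had 6.95, 6.68, 6.91, 7.01, 6.85 and 6.87. Diabetic retina 2 lay among the controls, below controls 1 and 6, so the groups overlapped. The change was 0.28 ± 0.06 (95% interval 0.14 to 0.41; adjusted p = 0.0357). The call was lost without any one of controls 2 to 5 or of diabetic retinas 1, 3, 4, 5 and 6 (adjusted p from 0.0526 to 0.0718). Rab6a, a gene of vesicle traffic whose span overlaps that of Mrpl48 by 727 bases, had a value in the other direction (-0.18 ± 0.06; adjusted p = 0.0905).

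**Figure D1:**
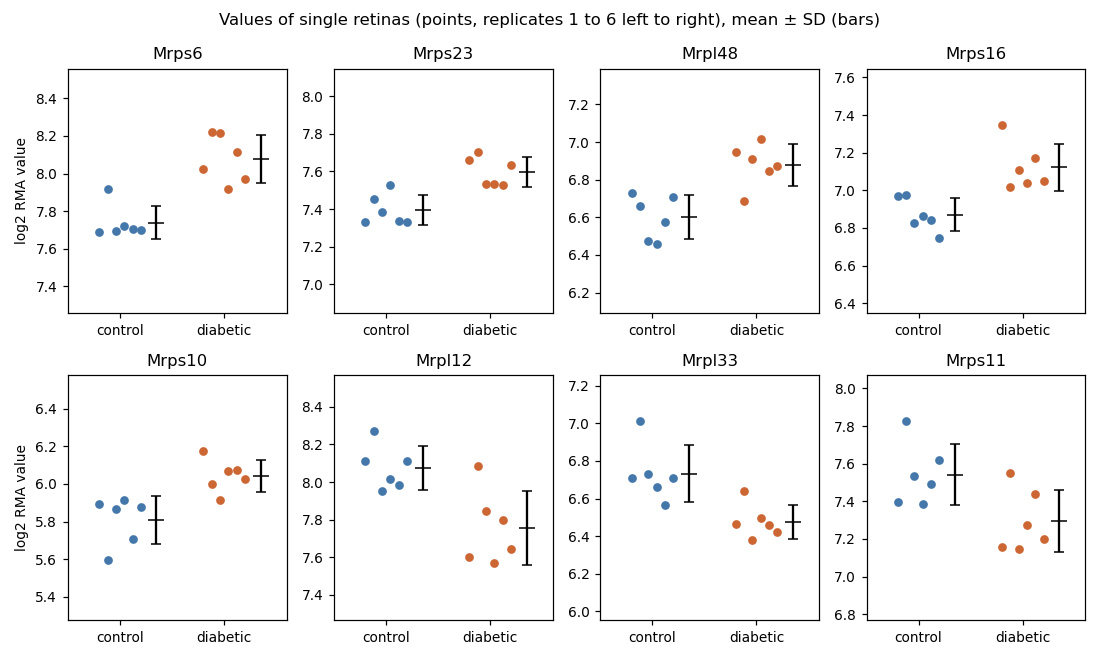
Log2 RMA values (y axis) of 8 mitochondrial ribosomal protein genes in 6 control (blue) and 6 diabetic (orange) retinas, 1 point per retina, with mean ± SD as black bars; each panel covers the same range of log2 values around its own middle. The points of Mrps6, Mrps23, Mrps16 and Mrps10 do not overlap between the groups, those of the other 4 genes do, and Mrps10, Mrpl12, Mrpl33 and Mrps11 did not pass the test.

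The groups did not overlap for 4 of the 76 members (5.26%), all higher in diabetic retinas, beside 2.84% of all genes in either direction. Of all 24570 genes, 300 were separated with diabetic retinas higher. Of the 12382 genes at or above the table median, 459 were separated, 199 of them higher. The 4 members were the 3 called small subunit genes and Mrps10, the counterpart of a protein of the bacterial small subunit head. Mrps10 had log2 values of 5.89, 5.60, 5.87, 5.91, 5.71 and 5.88 in controls and 6.18, 6.00, 5.92, 6.07, 6.07 and 6.03 in diabetic retinas. Its change of 0.23 ± 0.06 missed the threshold (adjusted p = 0.0537). No large subunit gene was separated in this way.

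A further 10 of the 76 members missed the threshold with an adjusted p under 0.1. In that range lay 1170 of all 24570 genes and 834 of the 12382 at or above the table median. The 10 members went both ways. Mrpl16 (0.13 ± 0.03; adjusted p = 0.0508), Mrps10, Mrps28 and Mrpl21 had positive values. Mrps28, the counterpart of a bacterial protein that helps recruit messenger RNA, was at 6.43, 6.18, 6.17, 6.31, 6.29 and 6.28 in controls and 6.34, 6.50, 6.65, 6.77, 6.47 and 6.47 in diabetic retinas (0.26 ± 0.07; adjusted p = 0.0654). Only diabetic retina 1 lay within the control range. A pseudogene, Gm15466, is annotated inside its span. The 6 members with negative values were all of the large subunit: Mrpl12, Mrpl33, Mrpl34, Mrpl17, Mrpl38 and Mrpl51, with changes from -0.32 to -0.12 and adjusted p from 0.0596 to 0.0896.

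Mrpl12, which forms the stalk that binds translation factors and is also known to bind the mitochondrial RNA polymerase, had the most negative value of all members. Its levels were 8.11, 8.27, 7.95, 8.02, 7.99 and 8.11 in controls and 7.60, 8.09, 7.85, 7.57, 7.80 and 7.64 in diabetic retinas. Diabetic retina 2 stood within the control range and the other 5 below it. The difference was -0.32 ± 0.09 (95% interval -0.51 to -0.13; adjusted p = 0.0670), and it passed without diabetic retina 2 (-0.38) but not without any other single array. It also passed with the intensity trend, with array weights and with the brighter genes tested alone (adjusted p from 0.0304 to 0.0464). Mrpl33, the counterpart of a small bacterial large subunit protein, was at 6.71, 7.01, 6.73, 6.66, 6.56 and 6.71 in controls and 6.46, 6.64, 6.38, 6.50, 6.46 and 6.42 in diabetic retinas (-0.26 ± 0.07; adjusted p = 0.0596). Control 2 stood apart on the high side, and diabetic retina 2 lay above control 5. A long noncoding RNA, Gm38424, is annotated over the whole span of Mrpl33, and its own line differed by -0.04 ± 0.07 (adjusted p = 0.801). Mrpl33 passed without control 5 or diabetic retina 2, and in the same 3 settings as Mrpl12 (adjusted p from 0.0313 to 0.0416). Mrpl34 (-0.19 ± 0.05; adjusted p = 0.0707) and Mrpl17 (-0.19 ± 0.06; adjusted p = 0.0858) also overlapped between the groups.

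At an unadjusted p under 0.05 there were 24 members (31.6%, beside 21.0% of all genes and 27.7% of the brighter genes). Of these 24 members, 14 were higher and 10 lower. Beyond the 14 already named these were Mrpl50, Mrpl47, Mrpl20, Mrpl42, Mrpl3 and Mrps35 with values from 0.08 to 0.16, and Mrps11, Mrps24, Mrps21 and Mrpl45 with values from -0.25 to -0.10. Mrps11, the counterpart of a bacterial platform protein, had 7.40, 7.83, 7.53, 7.39, 7.49 and 7.62 in controls and 7.16, 7.55, 7.15, 7.28, 7.44 and 7.20 in diabetic retinas. The ranges overlapped, and the difference was -0.25 ± 0.09 (adjusted p = 0.138).

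The other 52 members had an unadjusted p of 0.05 or more. Of the large subunit, 16 had values above 0, from 0.0042 to 0.16: Mrpl1, Mrpl2, Mrpl9, Mrpl10, Mrpl14, Mrpl18, Mrpl22, Mrpl24, Mrpl30, Mrpl32, Mrpl36, Mrpl39, Mrpl44, Mrpl46, Mrpl53 and Mrpl57. Another 17 had values below 0, from -0.13 to -0.00081: Mrpl4, Mrpl11, Mrpl13, Mrpl15, Mrpl19, Mrpl23, Mrpl28, Mrpl35, Mrpl37, Mrpl40, Mrpl41, Mrpl43, Mrpl49, Mrpl52, Mrpl54, Mrpl55 and Mrpl58. Of the small subunit, Mrps2, Mrps5, Mrps9, Mrps18a, Mrps27, Mrps30, Mrps31 and Mrps36 had values from 0.013 to 0.084. Mrps7, Mrps12, Mrps14, Mrps15, Mrps17, Mrps18b, Mrps22, Mrps25, Mrps26, Mrps33 and Mrps34 had values from -0.13 to -0.0099. For 7 members the mean level lay under the table median (Mrps36, Mrpl23, Mrpl36, Mrpl21, Mrpl20, Mrps14 and Mrpl22), and at such low levels the size of a change is uncertain.

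**Figure D2:**
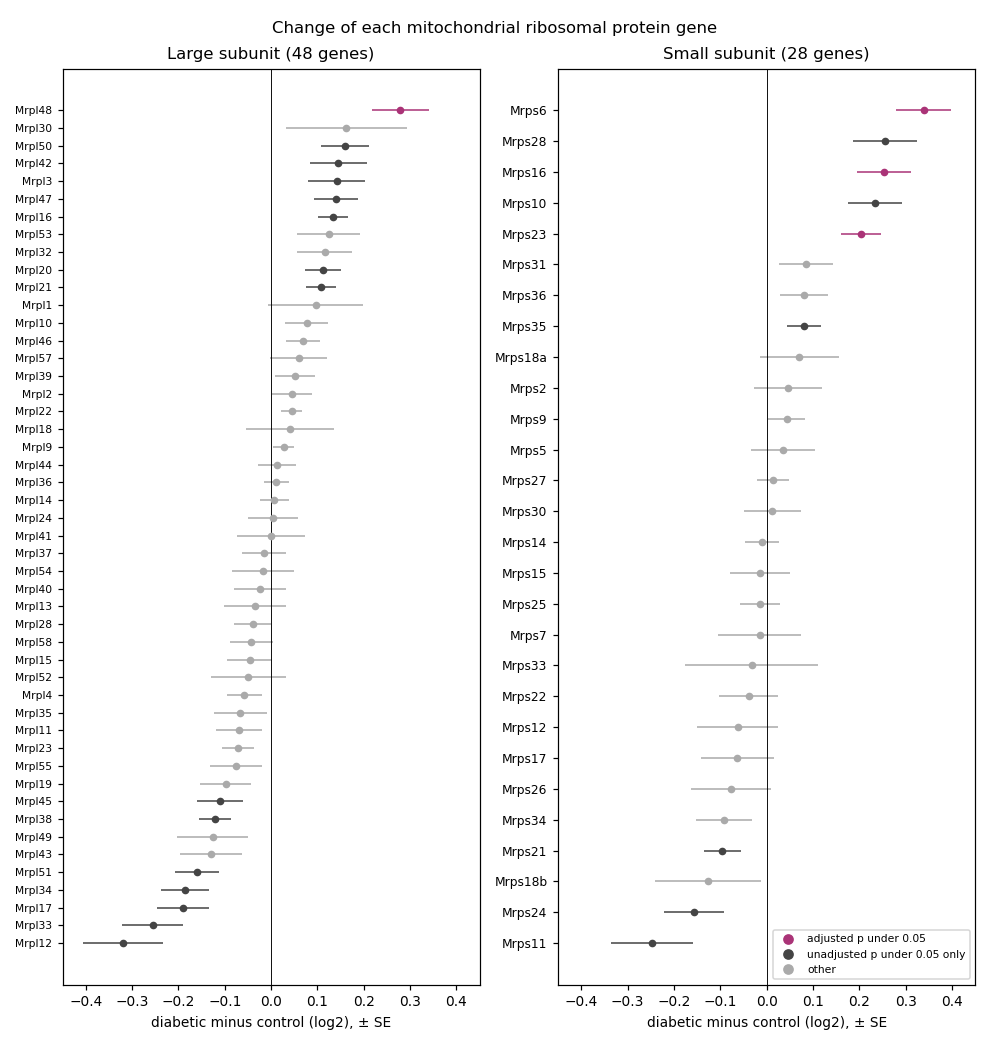
Change of each of the 76 genes (x axis, diabetic minus control, log2; points with limma's SE), in order of change, for the 48 large subunit genes (left) and the 28 small subunit genes (right). Purple points passed the adjusted test (Mrpl48, Mrps6, Mrps16, Mrps23), dark grey points had an unadjusted p under 0.05 only, and both panels spread about evenly around 0.

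Several members with a particular role or place did not pass the test. Mrps12, the protein at the decoding centre of the small subunit, differed by -0.06 ± 0.09 (95% interval -0.25 to 0.13; adjusted p = 0.731). Mrps18a and Mrps18b descend from the same bacterial protein, but the product of Mrps18a sits in the large subunit. Mrps18b had 8.34, 8.51, 8.14, 8.23, 8.37 and 8.50 in controls and 7.98, 8.68, 8.28, 8.21, 8.25 and 7.95 in diabetic retinas, so that both the highest and the lowest retina were diabetic. Its difference was -0.13 ± 0.11 (95% interval -0.37 to 0.12; adjusted p = 0.570), and that of Mrps18a was 0.07 ± 0.08 (95% interval -0.11 to 0.26; adjusted p = 0.684). Mrps30, whose product is likewise found in the large subunit despite its name, differed by 0.01 ± 0.06 (95% interval -0.12 to 0.15; adjusted p = 0.933), and this sign turned with array weights and without control 5 or diabetic retina 1. Mrps36, whose product is now known as a part of the oxoglutarate dehydrogenase complex, differed by 0.08 ± 0.05 (adjusted p = 0.401).

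The subunits were next compared with each other. The median change was nearly equal, 0.0017 over the large and 0.0013 over the small subunit genes, a difference of 0.00041, beside -0.0018 over all genes. Values above 0 were found in 24 of 48 large and 14 of 28 small subunit genes. The middle 50% of changes ran from -0.07 to 0.08 in the large and from -0.06 to 0.08 in the small subunit, wider than the -0.03 to 0.03 of all genes and close to the -0.07 to 0.07 of genes at or above the table median. Calls were 1 of 48 in the large subunit (2.08%) and 3 of 28 in the small subunit (10.7%), and whether these shares differ was not tested. With Mrps18a and Mrps30 counted as large subunit proteins and Mrps36 left out, the difference of the medians was 0.020.

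In single retinas the subunits were followed by the mean deviation of their genes from each gene's mean over the 12 arrays. Large subunit genes ran from -0.05 to 0.04 in controls and from -0.015 to 0.03 in diabetic retinas. Small subunit genes ran from -0.08 to 0.02 in controls and from -0.02 to 0.06 in diabetic retinas. Both subunits were lowest in control 5, and the small subunit was highest in diabetic retina 2. The small minus the large subunit was -0.04 to 0.007 in controls and -0.02 to 0.05 in diabetic retinas, with means of -0.01 ± 0.02 and 0.01 ± 0.03 (SD, n = 6 each). The ranges overlapped. Without diabetic retina 2, the large minus small difference of the median changes was -0.030.

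**Figure D3:**
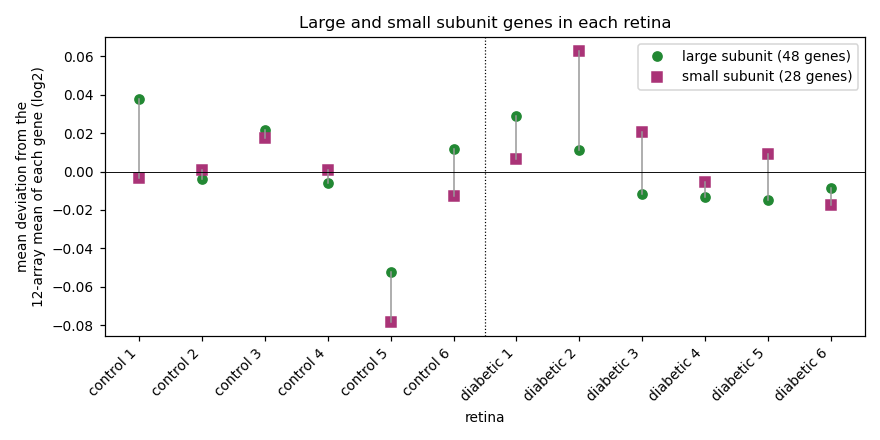
Mean deviation of the 48 large subunit genes (green circles) and 28 small subunit genes (purple squares) from each gene's mean over all arrays (y axis, log2), for the 12 retinas (x axis), with a line joining both values of a retina. Control 5 is lowest for both subunits, diabetic 2 is highest for the small subunit, and the groups overlap.

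The members were also split by whether they are numbered after a bacterial protein, and the difference was not tested. Of the 42 members with such a number, 2 were called (4.76%) and the median change was 0.0055. Of the other 34, 2 were called (5.88%) and the median change was -0.0078. Values above 0 were found in 22 and 16 of them.

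Changes of the members went with the genomic span of the gene, taken from GRCm38.p6. Among the 25 members shorter than 5227 bp, the median change was -0.05 and 18 had values below 0. The middle 25 had a median of 0.0042, and the 26 of 9538 bp or more had a median of 0.05, with 18 values above 0. The same bounds gave medians of -0.03, -0.03 and 0.0078 over the genes at or above the table median. Across the 76 members the Spearman correlation of change with span was 0.38, beside 0.16 across 12357 genes at or above the table median. Genes are not independent replicates and all values share the same 12 arrays, so these are descriptions. Of the called members, Mrps6, Mrpl48 and Mrps23 were among the longer ones and Mrps16, at 2413 bp, among the shortest, whereas Mrpl12, Mrpl34 and Mrpl33 spanned 4118, 828 and 8694 bp.

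**Figure D4:**
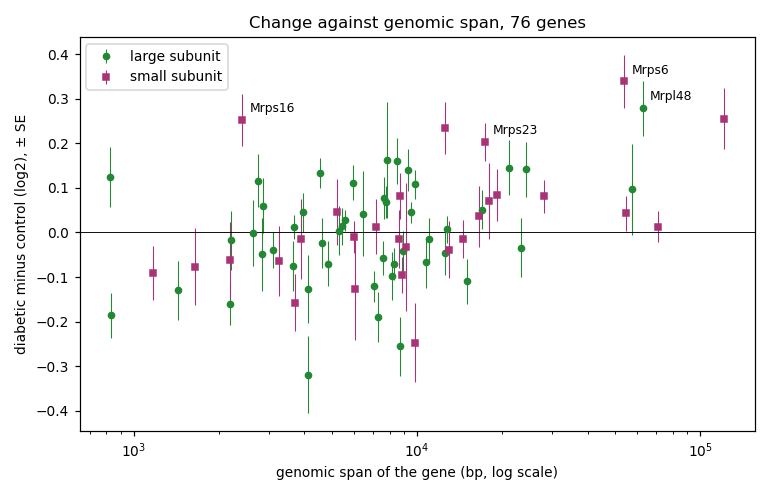
Change of each of the 76 genes (y axis, diabetic minus control, log2, with SE) against the genomic span of the gene (x axis, bp, log scale), for large (green circles) and small (purple squares) subunit genes. Among the 26 longest genes 18 lie above 0, among the 25 shortest 18 lie below 0, and the 4 named genes passed the test.

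Other genes of mitochondrial translation were taken from lists of related genes, of which 72 were measured beside the members. Of these, 2 rose and 0 fell past the test (2.78%, beside 3.24% of all genes and 5.14% of the brighter genes). An unadjusted p under 0.05 was found for 22 (30.6%, beside 21.0% and 27.7%), 11 in each direction. The list of RNAs encoded by mitochondrial DNA, including both ribosomal RNAs, was not analysed here. None of 5 mitochondrial ribosomal proteins with other names passed (Dap3, Chchd1, Aurkaip1, Ptcd3 and Gadd45gip1), with values from -0.10 to 0.09. Gadd45gip1, a large subunit protein, had the smallest p of them (-0.10 ± 0.06; adjusted p = 0.376).

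Among 15 translation factors 1 rose, Lrpprc, which with Slirp forms a complex that stabilises mitochondrial messenger RNAs. Lrpprc had 9.42, 9.44, 9.41, 9.52, 9.53 and 9.64 in controls and 9.77, 9.60, 9.63, 9.70, 9.63 and 9.77 in diabetic retinas, where control 6 lay above the 3 lowest diabetic ones. It rose by 0.19 ± 0.04 (adjusted p = 0.0402), a call lost without any one of controls 1 to 4 or of diabetic retinas 1, 3, 4, 5 and 6 (adjusted p from 0.0534 to 0.0792) and with the lens marker covariate (adjusted p = 0.0724). Slirp had a value of the other sign (-0.26 ± 0.07; adjusted p = 0.0570), as did the elongation factor Tufm (-0.21 ± 0.05; adjusted p = 0.0580). Guf1, another elongation factor, was the only related gene whose groups did not overlap, with 7.94 to 8.34 in controls and 8.34 to 8.53 in diabetic retinas (0.21 ± 0.06; adjusted p = 0.0863). Slirp, Tufm and Guf1 were chosen after their values were seen.

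Of 17 mitochondrial aminoacyl-tRNA synthetases, which load transfer RNAs with amino acids, Hars2 rose by 0.21 ± 0.05 (adjusted p = 0.0480). Its values were 6.80, 6.70, 6.82, 6.82, 6.80 and 6.87 in controls and 7.16, 6.84, 7.03, 6.91, 7.11 and 7.02 in diabetic retinas, with diabetic retina 2 inside the control range. Without diabetic retina 2 it still passed, but it was lost without any other single array (adjusted p from 0.0592 to 0.0917), with the lens marker covariate (adjusted p = 0.0583) and with an intensity trend and robust variances (adjusted p = 0.0513). None of 25 assembly factors of the ribosome passed. Values below 0 were found in 18 of them, beside 12740 of all 24570 genes, and the median was -0.03. At an unadjusted p under 0.05, 6 were higher and 5 lower (44.0%, beside 21.0% of all genes and 27.7% of the brighter genes). The smallest p of the 25 was that of Mettl15, a methyltransferase of the ribosomal RNA (-0.19 ± 0.05; adjusted p = 0.0636). None of 10 genes for copying and transcribing mitochondrial DNA passed, of which 7 had values above 0. Polg, the catalytic subunit of the DNA polymerase, was the one with the smallest p (-0.12 ± 0.05; adjusted p = 0.176).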

How the data were processed

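Gene expression was measured on 1 array for each of 12 retina samples. The authors deposited RMA expression values on a log2 scale, per the submitters' processing notes; the version, the array and the probe set definition are not given in the sources used here. The 24973 lines are Entrez gene numbers. The sorted values of all arrays are identical, from 5.07 to 14.10, so that a change of most genes in 1 direction could not be seen, and levels of different genes are not comparable. Names came from the platform annotation (24015 lines) and RefSeq (559), and 399 lines without a name were left out. Of 4 symbols on several lines the brightest was kept, which left 24570 genes.

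Diabetic minus control was tested with limma 3.58.1 (R 4.3.3; lmFit, eBayes, no filter). Two-sided p-values were adjusted by the Benjamini-Hochberg method across the 24570 genes, and 0.05 was the limit for a call. Errors of changes are limma's SE. The fit was tested on simulated data drawn from these genes' means and SDs: 58% of 50 genes changed 1.1-fold, 72% of 50 changed 1.2-fold and 96% of 50 changed 1.5-fold were recovered. The changed genes were picked from all 24570 genes, whose median SE was 0.033, beside 0.057 for the members. These shares therefore do not give the recovery for the members, which was not simulated and may be lower. The number of arrays limits the precision.

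Members named are those past the test, the 5 of smallest p that missed it, the 5 largest rises and falls, those whose groups do not overlap, and Mrps12, Mrps18a, Mrps18b, Mrps30, Mrps36 and Mrpl12. For each related list, the genes past the test and the one of smallest p are named. Microglia markers averaged 5.55 to 5.64 in all arrays. The members and lists were chosen with earlier results of these data known. The splits by span and by number, the neighbouring genes and the motifs were chosen after the data were seen.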

Additional observations from a re-analysis of the deposited data

Results flagged for a closer look

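Outlying arrays were sought in 48 groups of 6 arrays (named genes and the means of both subunits). An array was judged by its gap to the nearest value as a share of the group's range. For independent groups, chance gives about 1 in 20. These groups share the same arrays, and many of the genes were named for their changes, so that rate cannot be applied to them. An outlying array was found in 7 of the 48 groups (14.6%). Control 2 was the far array in 3 of them: Mrps6, where it was high (ratio 0.874; 7.92 against at most 7.72), Mrpl16, where it was low (0.883; 5.88 against at least 5.96), and Mrpl33, where it was high (0.628; 7.01 against at most 6.73). The adjusted p of Mrpl16 and Mrpl33 without control 2 stayed above 0.05. Diabetic retina 2 was low for Mrpl16 (0.635; 5.94 against at least 6.08), which passed without it (adjusted p = 0.0094, limma). Diabetic retina 1 was high for Mrps30 (0.679; 6.96 against at most 6.69) and low for Polg (0.891; 6.33 against at least 6.54). The mean over the small subunit genes was low in control 5 (0.682; 6.81 against at least 6.87).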

How the results depend on the processing

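The count of 4 called members was sensitive to the settings tried, while the medians were near 0 in all of them. Mrps6 was called in every setting, and Mrps23, Mrps16 and Mrpl48 were each lost in some. The count was 9 with an intensity trend and robust variances, and 8 of 69 with genes at or above the table median alone (fewer genes tested). It was 7 with array weights (9.21%, beside 3.68% of all genes). At an adjusted p under 0.1 it was 14, 8 higher and 6 lower, beside 1967 of all 24570 genes. Of the 12382 genes at or above the table median, 1470 passed that limit. The members' count was 1 to 7 without single arrays: 1 without control 3 or diabetic retina 6, and 2 without control 2, 4 or 6 or diabetic retina 3 or 4. It was 7 without diabetic retina 2 (9.21%, beside 3.31% of all genes). For array weights and without diabetic retina 2, the share of the brighter genes, where most members lie, is not given here. Mrpl12 and Mrpl33 were among the calls added, both lower, by the trend, the filter, the weights and without diabetic retina 2. Over all genes the count of 797 became 454 with the lens marker covariate and 325 to 835 without single arrays. The count of 2 related calls became 5 with array weights, 6 with the filter, 1 with the covariate and 0 to 5 without single arrays. With the covariate, Lrpprc and Hars2 were both lost (adjusted p = 0.0724 and 0.0583, limma), so the 1 gene called there was another. For causes other than fewer genes or arrays, the cause was not tested. The large minus small difference of medians ran from -0.030 to 0.016 without single arrays. Mrps30 turned to -0.0098 with array weights and ran from -0.042 to 0.039 without single arrays.

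The replicate numbers of the labels did not pair the samples, with correlations of deviations from -0.17 to 0.18, and 1 of 6 samples correlating best with its own number. With the replicate block, 506 genes, 4 members (Mrps6, Mrps16, Mrpl16 and Mrpl33) and 5 related genes passed.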

Other observations

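Members varied unequally among retinas of the same group, and the 3 named here were chosen for it after the data were seen. Mrps33, a small subunit protein without a bacterial counterpart, varied most, from 6.81 to 7.60 in controls (7.22 ± 0.30, SD, n = 6) and from 6.90 to 7.51 in diabetic retinas (7.19 ± 0.23). Mrpl30 was next, from 6.43 to 6.99 in controls (6.72 ± 0.24) and from 6.46 to 7.12 in diabetic retinas (6.88 ± 0.25). Its interval for the difference, -0.12 to 0.45, therefore includes changes larger than those of the 4 called members. Mrpl1 varied in controls (SD 0.26, with control 2 at 6.00 and the other 5 at 6.46 to 6.76) and less in diabetic retinas (SD 0.09).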
